A study of Mus musculus with 12 samples.

Results

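The immediate early genes and ERK targets *Fos*, *Jun*, *Egr1*, *Atf3*, *Myc*, *Dusp7*, *Arc* and *Maff* were examined in microglia, the resident macrophages of the central nervous system. These 8 genes form a family by what they are known to do and were taken by symbol from the 770 genes of the NanoString nCounter Neuroinflammation panel, and all 8 were found on it. The labels of the 12 samples give the strain as C57B6 and call mice and cells untreated, whereas the study's legend states tamoxifen treatment of all mice, recent in the adult ones and long past in the aged ones, which cannot be told apart from age. Groups were taken from the sample titles, since the sample type tag reads aged for every sample, the adult ones included. Adult microglia came from mice of 12 to 20 weeks (samples 1, 4, 10 and 11), and aged microglia came from mice over 80 weeks old and were sorted into a P-ERK1/2 Low population (samples 3, 6, 9 and 12, hereafter Low) and a P-ERK1/2 High population (samples 2, 5, 7 and 8, hereafter High) by staining for phosphorylated ERK1/2. Adult cells were not separated by ERK1/2 phosphorylation, so that age and the sort cannot be told apart where an aged group is set against the adult one. By the study's methods, each sample pooled the tissue of a male and a female mouse, and the sort gate took YFP+ cells with intermediate CD45 and no Ly6G, where YFP is a reporter. Sample 11 is marked in its title as excluded for poor quality, and adult values rest on samples 1, 4 and 10 unless it is named.

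Immediate early genes are transcribed within minutes of a stimulus from factors that are already present in the cell. The kinases ERK1 and ERK2 phosphorylate ETS-family factors that sit with serum response factor at *Fos* and *Egr1*, and kinases downstream of ERK phosphorylate CREB, which binds cAMP response elements. The products are mostly transcription factors of short life, and dual-specificity phosphatases such as *Dusp7* close the circuit by removing phosphate from ERK. In microglia these genes are known to respond to growth factors, inflammatory stimuli and the handling of tissue during dissociation.

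The deposited values are normalized counts, set so that 13 housekeeping genes have the same geometric mean in each sample. Counts recovered from them summed over all genes to between 650965 and 1539936 in High samples, between 123798 and 157209 in Low samples and between 137980 and 326575 in adult samples other than sample 11. A gene was taken as above background where its count exceeded the mean plus 2 SD of the 8 negative control probes of the sample, which held for 589 to 673 genes in High, 410 to 484 in Low and 417 to 560 in adult samples. All 8 microglia markers (*P2ry12*, *Tmem119*, *Cx3cr1*, *Csf1r*, *Sall1*, *Gpr34*, *Olfml3* and *Fcrls*) were above background in every High sample. *P2ry12* was above background in 0 of 4 Low samples and 2 of 3 adult samples, where fewer counts were available, while *Csf1r* was above background in all of them. Against adult, 3 of the 8 markers were called lower in Low (*Fcrls* by -2.31, *Olfml3* by -1.56 and *Tmem119* by -1.03 on the log2 scale) and stayed so under all 8 ways of scaling or background correction, 37.5% beside 10.8% of all genes, with a median of -0.81 beside 0.10. In High against Low 4 of the 8 were called higher and 0 lower, 50% beside 37.8% of all genes, with a median of 0.94 beside 0.26. With each sample scaled to an equal sum of values, 0 were called higher and 1 lower. In High against adult 1 was called higher and 2 lower, 37.5% beside 36.9%, with a median of 0.64 beside 0.35. Median values of *Fcrls* and *Olfml3* were 601 and 581 in adult, 143 and 219 in Low and 189 and 168 in High samples. The part of these markers in the results of any comparison was not tested. The scale itself moved with the groups, since the housekeeping gene *Supt7l* lay between 680 and 887 in High samples, 65.6 and 85.6 in Low and 74.9 and 106 in adult samples. Other housekeeping genes moved too, such as *Gusb*, between 2130 and 4542 in High, 1664 and 2162 in Low and 976 and 1374 in adult samples. Of all 13, 8 had a limma adjusted p under 0.05 in High against Low, with a median log2 fold change of -0.52. At an unadjusted limma p under 0.05, 3 were higher and 6 lower. High sample 7 stood apart from the others of its group in several of the 8 genes, and its values are given beside each result that rests on it.

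Promoter sequences are shown for *Fos* and *Atf3*, because both encode basic leucine zipper factors and their changes in High against adult microglia had opposite signs on the deposited scale. They are the 250 bases before each start in the RefSeq table, build GRCm38.p6, read 5′ to 3′ on the gene's strand, with capitals marking the CRE core, the letters TGACG or its reverse complement CGTCA. The *Fos* window is chr12:85473640-85473889 on the plus strand and ends at the base before the annotated gene, which spans 85473890 to 85477274. The *Atf3* window is chr1:191183334-191183583 on the minus strand and lies next to the gene at 191170296 to 191183333.
Fos: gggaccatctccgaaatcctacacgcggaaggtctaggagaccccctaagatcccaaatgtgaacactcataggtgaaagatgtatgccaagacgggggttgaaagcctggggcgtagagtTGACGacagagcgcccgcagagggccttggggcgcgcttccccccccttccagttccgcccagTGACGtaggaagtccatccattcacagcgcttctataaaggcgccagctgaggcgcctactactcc
Atf3: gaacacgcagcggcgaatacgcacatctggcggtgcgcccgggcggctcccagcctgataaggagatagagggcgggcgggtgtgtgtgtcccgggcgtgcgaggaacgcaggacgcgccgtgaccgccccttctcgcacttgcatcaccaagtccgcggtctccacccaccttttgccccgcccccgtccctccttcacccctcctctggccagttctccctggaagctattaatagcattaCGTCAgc
The *Fos* window held the CRE core at 129 and at 66 bases before the start, and the *Atf3* window held it at 7 bases before the start. On both strands, 17.8% of 32851 promoter windows of this length held it. Of the 3 *Maff* windows, 2 held it, 1 of them within the full CRE, TGACGTCA, at 29 bases before the start, which 1.55% of the promoter windows held. The windows of *Jun* and *Dusp7* did not contain these letters. Promoter windows were examined for 5 of the 8 genes (*Fos*, *Jun*, *Atf3*, *Dusp7* and *Maff*). Those of *Egr1*, *Myc* and *Arc* were not examined.

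**Figure D1:**
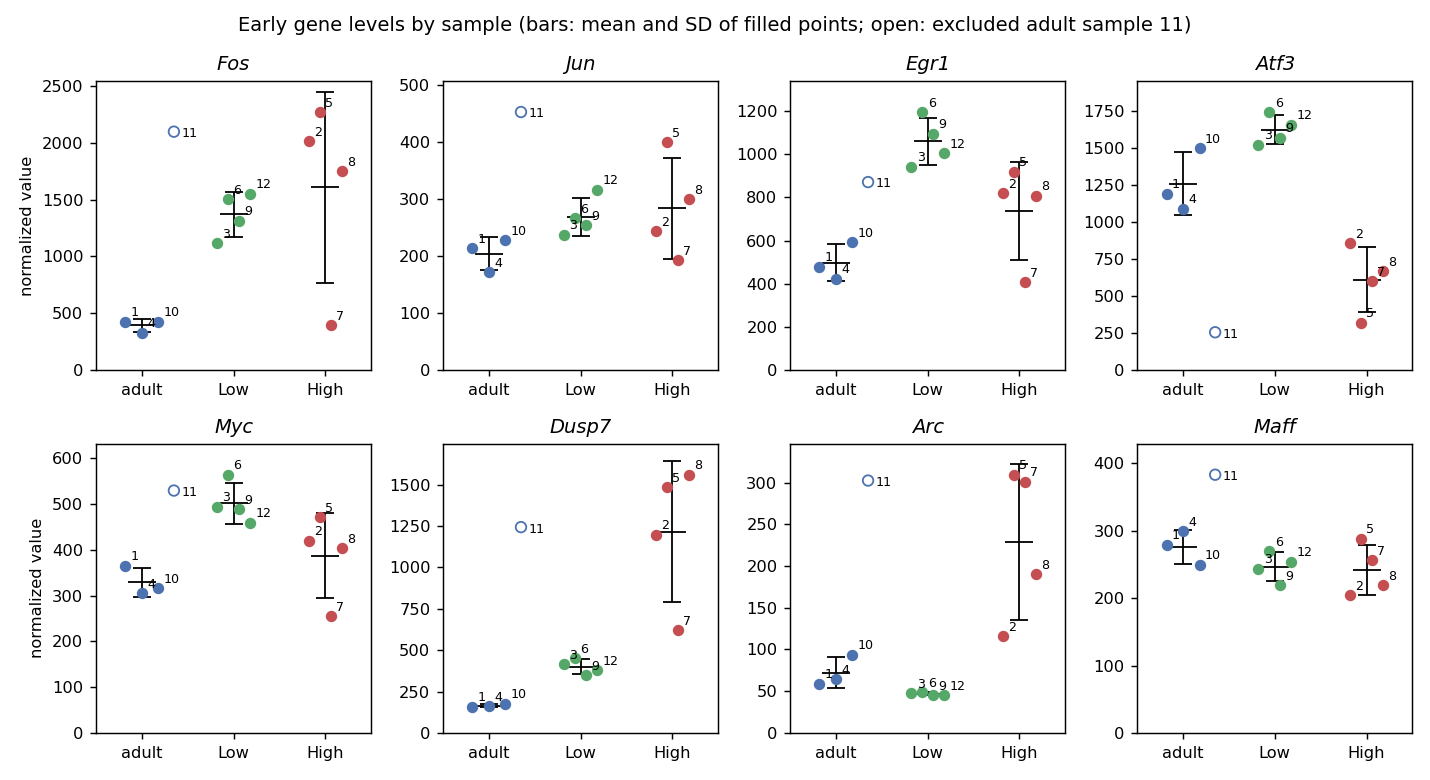
Normalized value (vertical axis, linear from 0) of each gene in every sample, with adult, aged P-ERK1/2 Low and aged P-ERK1/2 High on the horizontal axis and sample numbers beside the points. Bars give the mean and SD of the filled points, and the open point is the excluded adult sample 11. Fos in sample 7 lies at 394, within the adult samples, while the other High samples lie between 1747 and 2270.

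*Fos* encodes the partner that needs a Jun protein to bind DNA, and its transcript is a standard readout of recent ERK activity. Its normalized value was 427, 330 and 425 in adult samples 1, 4 and 10. It was 1115, 1504, 1316 and 1551 in Low samples 3, 6, 9 and 12. It was 2016, 2270, 394 and 1747 in High samples 2, 5, 7 and 8. All Low samples thus lay above all adult samples, whereas the High group was split, with 3 samples above every Low sample and sample 7 among the adult ones. Against adult, *Fos* rose 3.47-fold in Low (log2 fold change 1.80, SE 0.18, limma adjusted p = 6.0e-04), and it ranked 9 of 770 genes by increase. High differed from Low by -0.03 on the log2 scale, with a 95% interval of -1.06 to 1.00, which is 0.481-fold to 2.00-fold. Without sample 7 the difference was 0.56, which was not called either.

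*Jun* encodes the partner of Fos in AP-1. It stood at 213, 171 and 227 in adult samples 1, 4 and 10, at 237, 266, 254 and 316 in Low samples 3, 6, 9 and 12, and at 243, 399, 193 and 299 in High samples 2, 5, 7 and 8. Low lay just above adult without overlap, and High overlapped both. The differences in log2 were 0.40 for Low against adult (95% interval 0.01 to 0.78), 0.43 for High against adult (95% interval -0.21 to 1.08) and 0.04 for High against Low (95% interval -0.52 to 0.59). None of these passed the limma test.

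*Maff* encodes a small MAF protein, which pairs with AP-1-like partners and has no activation domain of its own. Its value was 279, 299 and 250 in adult samples, 244, 270, 219 and 254 in Low samples and 205, 288, 256 and 219 in High samples, each in the sample order given above. The groups overlapped throughout. The log2 differences were -0.16 for Low against adult, -0.20 for High against adult and -0.04 for High against Low, and the widest of their 95% intervals ran from -0.73 to 0.33.

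*Egr1* encodes a zinc finger factor that is induced through ERK and serum response factor. It was at 479, 424 and 593 in adult samples 1, 4 and 10. It was at 942, 1195, 1094 and 1005 in Low samples 3, 6, 9 and 12. It was at 819, 920, 408 and 808 in High samples 2, 5, 7 and 8. Every Low sample was higher than every other kept sample of the study, and 3 of 4 High samples lay between the adult and the Low samples. *Egr1* rose 2.13-fold in Low against adult (log2 fold change 1.09, SE 0.17, limma adjusted p = 0.0032). That call was lost under several scalings given further on and needed adult sample 4, since without it the log2 fold change was 0.98, short of the limit of 1. The log2 difference of High from Low was -0.58 (95% interval -1.18 to 0.02) and did not pass the limma test, although the groups did not overlap. Without sample 7 it was -0.32.

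*Myc* encodes a basic helix-loop-helix factor that drives growth and whose protein is stabilised by ERK. Its value was 365, 305 and 316 in adult samples 1, 4 and 10, 495, 564, 490 and 459 in Low samples 3, 6, 9 and 12, and 420, 471, 255 and 404 in High samples 2, 5, 7 and 8. Low lay above adult in all samples, and sample 7 was below every adult sample. The log2 difference of Low from adult was 0.61 (SE 0.14, limma adjusted p = 0.017), which did not reach the fold limit. The other differences were 0.20 for High against adult (95% interval -0.40 to 0.81) and -0.40 for High against Low (95% interval -0.92 to 0.11).

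*Atf3* encodes a stress-induced member of the CREB family that often acts as a repressor. It stood at 1191, 1089 and 1497 in adult samples 1, 4 and 10. It stood at 1521, 1742, 1570 and 1657 in Low samples 3, 6, 9 and 12. It stood at 856, 322, 601 and 668 in High samples 2, 5, 7 and 8. High lay below adult and adult below Low, unlike *Fos*, and no pair of groups overlapped. *Atf3* fell 2.81-fold in High relative to Low (log2 fold change -1.49, SE 0.29, limma adjusted p = 0.0012), but this direction depended on the housekeeping scale and turned to 0.19 on unscaled counts and 0.50 when counts were scaled to the positive control probes. The recovered counts behind these values were 450 to 703 in High, 404 to 587 in Low and 525 to 935 in adult samples. *Atf3* ranked 755 of 770 genes by increase on the deposited scale. The log2 difference of Low from adult was 0.38 (95% interval 0.02 to 0.74) and was not called.

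*Dusp7* encodes a cytoplasmic phosphatase that acts on ERK1/2, and it gave the most graded pattern of the 8 genes. Its value was 159, 161 and 175 in adult samples 1, 4 and 10. It was 417, 452, 350 and 377 in Low samples 3, 6, 9 and 12. It was 1199, 1486, 620 and 1561 in High samples 2, 5, 7 and 8. No group overlapped another, and sample 7, although the lowest of its group, stayed above every Low sample. *Dusp7* rose 2.40-fold in Low against adult (log2 fold change 1.26, SE 0.14, limma adjusted p = 0.0010) and a further 2.88-fold in High relative to Low (log2 fold change 1.53, SE 0.29, limma adjusted p = 0.0012). The whole rise from adult to High was 6.92-fold, with a log2 fold change of 2.79 (SE 0.33, limma adjusted p = 1.1e-04). Its log2 fold change was above 0 in all 3 comparisons under each of 8 ways of scaling or background correction, with 0.41 as the smallest value, on unscaled counts for Low against adult. The calls for Low against adult and for High against Low were each lost under some scalings given further on.

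*Arc* encodes a cytoskeleton-associated protein best known as an activity-regulated gene of neurons. Its value was 59.0, 64.0 and 93.9 in adult samples 1, 4 and 10. It was 47.4, 49.1, 45.5 and 45.1 in Low samples 3, 6, 9 and 12. It was 116, 309, 301 and 190 in High samples 2, 5, 7 and 8. The groups did not overlap, but the Low values came from 11 to 17 counts and none of them was above background, as against 2 of 3 adult and 4 of 4 High samples. *Arc* was at least 2.18-fold higher in High than the background of Low. *Arc* had measured means of 229 in High and 46.8 in Low, and its mean log2 values differed by 2.16 (SE 0.30, limma adjusted p = 1.5e-04). Relative to adult microglia it rose 2.98-fold in High, a log2 fold change of 1.57 (SE 0.37, limma adjusted p = 0.0054), which was 0.17 and no longer called with an equal sum of values in each sample. For Low against adult no bound could be given, since the background of the Low samples, 69.2 to 117, was as high as the adult values.

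Values of genes from other tissues and cell types were set beside *Arc*. The summed value of 12 genes that are not known to be expressed by microglia (*Cpa3*, *Tpsb2*, *Ms4a2*, *Rag1*, *Tcl1*, *Ppp3r2*, *Sftpd*, *Cryba4*, *Kir3dl1*, *Kir3dl2*, *Il3* and *Foxp3*) was 147 to 277 in adult, 193 to 259 in Low and 286 to 776 in High samples. In High samples 2, 8, 7 and 5 it was 286, 346, 692 and 776, and *Arc* took the same order, 116, 190, 301 and 309. Of the 8 genes *Arc* and *Maff* followed this order, as did 80 of all 770 genes (10.4%). *Kir3dl2* (85.2 to 415) and *Tcl1* (69.4 to 168) were above background in all High samples, *Cpa3*, *Tpsb2*, *Ms4a2*, *Cryba4*, *Kir3dl1*, *Il3* and *Foxp3* in none, and no gene of the list in any adult or Low sample. The sum was thus carried by *Kir3dl2* and *Tcl1*, which were the 2 of the 12 called higher in High against Low, while *Il3*, not above background in any kept sample, was called lower as deposited (-1.05) and lay at 0.46 on unscaled counts. The share called was 25% beside 37.8% of all genes, and the median log2 fold change was 0.074 beside 0.26. With an equal sum 1 of the 12 was called higher and 2 lower, and as a percent of all counts the off-tissue sum was 0.0386 to 0.0865 in adult, 0.0380 to 0.0566 in Low and 0.0327 to 0.0946 in High samples, which overlapped. The summed value of 8 neuronal markers (*Rbfox3*, *Syp*, *Syn2*, *Tubb3*, *Nefl*, *Slc17a6*, *Slc17a7* and *Nrgn*) was 231 to 315 in adult, 227 to 312 in Low and 324 to 542 in High samples, with 2 of the 8 above background in all High samples and 0 of 8 in all adult or all Low samples. Of these 8, *Rbfox3* and *Syn2* were called higher in High, at least 1.38-fold and 1.13-fold above the background of Low, where both were above background in 0 of 4 samples. *Tubb3* and *Nefl* were called lower, at -1.16 and -1.03 as deposited but 0.47 and 0.56 on unscaled counts, and the median of the 8 was 0.18 beside 0.26 for all genes. The neuronal sum was higher in High on the deposited scale, whereas as a percent of all counts it was 0.0606 to 0.0986 in adult, 0.0541 to 0.0643 in Low and 0.0341 to 0.0742 in High samples, and with an equal sum 2 of the 8 were called higher and 4 lower. *Dusp7* did not share the order of the off-tissue sum, with 1199, 1561, 620 and 1486 in samples 2, 8, 7 and 5.

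Summed markers of endothelium, astrocytes and T and NK cells were also higher in High on the deposited scale. Of 5 endothelial markers (*Cldn5*, *Flt1*, *Tie1*, *Esam* and *Emcn*) 4 were called higher in High against Low where 28.2% of all genes were, with *Flt1* at least 2.38-fold above the Low background, and their summed value was 247 to 376 in adult, 161 to 287 in Low and 582 to 1130 in High samples. Of 5 astrocyte markers (*Aldh1l1*, *Gja1*, *Slc1a3*, *Sox9* and *S100b*) *Gja1* and *Sox9* rose, by 1.32 and 1.95, while *Slc1a3* and *S100b* had lower means in High than in Low, 30.7 against 60.0 and 35.6 against 48.7, and were not called, and the sum was 418 to 646, 546 to 792 and 1200 to 1925 in the same order. Of 8 T and NK cell markers 2 were called higher, 25% and so near the panel's share. *Cd3e* was at least 2.71-fold above the Low background, *Cd3g* had no bound above 1, and neither was above background in any Low sample, while the sum of the 8 was 142 to 267, 150 to 217 and 301 to 1083. With an equal sum 1 of 5 endothelial, 0 of 5 astrocyte and 1 of 8 T and NK cell markers were called higher by limma, and 2 of the astrocyte markers lower. As a percent of all counts the High samples overlapped the adult ones in all of these sums, at 0.0640 to 0.155 against 0.0649 to 0.110 for endothelium, 0.159 to 0.175 against 0.122 to 0.172 for astrocytes and 0.0339 to 0.105 against 0.0374 to 0.0783 for T and NK cells, and the Low ones in the last, at 0.0315 to 0.0503. As deposited, called higher were also 1 of 8 oligodendrocyte, 1 of 4 B cell and 2 of 6 border macrophage and monocyte markers, and 0 of 4 neutrophil markers passed in either direction by limma (0 at an unadjusted p under 0.05). The part of these cells, of the neuronal markers and of the off-tissue genes in the *Arc*, *Dusp7* and other results for High was not tested.

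**Figure D2:**
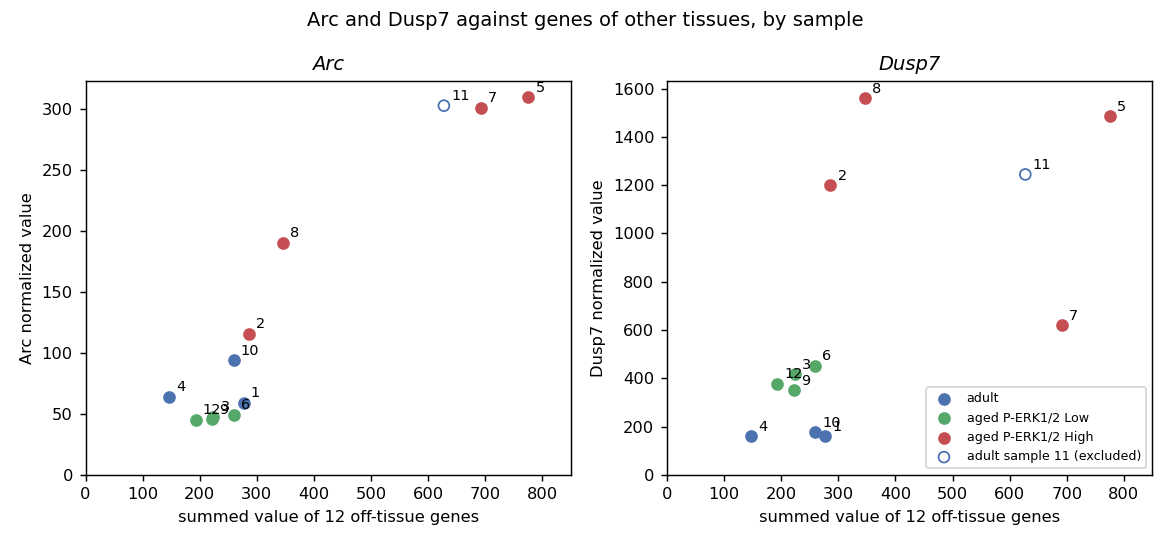
Normalized value of Arc (left) and Dusp7 (right) on the vertical axes against the summed value of 12 genes of other tissues on the horizontal axis, 1 point for each of 12 samples with its sample number. Arc reaches 301 and 309 in High samples 7 and 5, where the summed value is 692 and 776, and Dusp7 is 620 and 1486 in the same samples.

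To ask how the family differed between the aged populations, the 8 genes were counted together. Calls required a limma p below 0.01 together with a log2 fold change larger than 1 in size. Between the aged populations, *Arc* and *Dusp7* were higher in High, 2 of 8 where 28.2% of all 770 genes were called higher, and *Atf3* was lower, 1 of 8 where 9.61% were called lower. Together 3 of 8 were called beside 37.8% of all genes. Groups did not overlap for *Egr1*, *Atf3*, *Dusp7* and *Arc*, which is 4 of 8 beside 49.4% of all genes. The median log2 fold change of the 8 genes was -0.03 and that of all genes 0.26. Both shares were near those of the panel, and the 8 genes had no common direction as deposited, while all 8 lay above 0 on unscaled counts, where 595 of 596 called genes were higher and the median of all genes was 1.86. With an equal sum, where the median of all genes was -0.76, 6 of the 8 lay below 0, *Arc* was called higher and *Egr1*, *Atf3*, *Myc* and *Maff* lower, and *Dusp7* at 0.50 was not called, nor was it with quantile normalization (0.93). Leaving out any sample kept 3 of the 8 called.

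Set against adult microglia, *Fos*, *Dusp7* and *Egr1* rose in Low, 3 of 8 where 8.05% of all genes were called higher, and 0 of 8 were called lower by limma (1 at an unadjusted p under 0.05, *Arc*, and 0 in a per-gene test without shared spread) where 2.73% of all genes were. In either direction 10.8% of all genes were called. All but *Maff* had groups without overlap, 7 of 8, beside 36.5% of all genes. Of these, *Arc* was the only gene with lower values in Low, and its values there were not above background. The median log2 fold change was 0.50 for the 8 genes and 0.10 for all genes. These counts hold for the 3 kept adult samples. With adult sample 11 added, 0 of the 8 genes (2 at an unadjusted p under 0.05) and 34 of all genes were called by limma, and the log2 fold change of *Fos* was 1.19. At a limma adjusted p under 0.05 without the fold limit, 5 of the 8 genes passed with the kept samples, beside 26.1% of all genes.

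For High against adult, *Dusp7*, *Fos* and *Arc* rose, 3 of 8 where 29.2% of all genes were called higher, and *Atf3* fell, 1 of 8 where 7.66% were called lower. Together 4 of 8 were called beside 36.9% of all genes, and groups did not overlap for *Dusp7*, *Arc* and *Atf3*, 3 of 8 beside 50.3% of all genes. The medians were 0.47 and 0.35. The calls of *Fos* and *Atf3* were near the threshold. *Fos* had a log2 fold change of 1.77 (SE 0.53, limma adjusted p = 0.019) with overlapping groups, and of 2.35 without sample 7, while leaving out any other sample (2, 5, 8, 1, 4 or 10) ended the call with values down to 1.51, and an equal sum ended it at 0.35. *Atf3* had -1.11 (SE 0.34, limma adjusted p = 0.019), its call ended without any of samples 5, 7, 8, 1, 4 and 10, with values from -1.21 to -0.83, and its sign turned to 0.061 with counts scaled to the positive control probes. *Egr1* differed by 0.52 on the log2 scale (95% interval -0.19 to 1.22), and by 0.78 without sample 7. With adult sample 11 added, 0 of the 8 genes (1 at an unadjusted p under 0.05) and 49 of all genes were called by limma. The comparisons share the adult or an aged group, so they are not independent of each other.

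**Figure D3:**
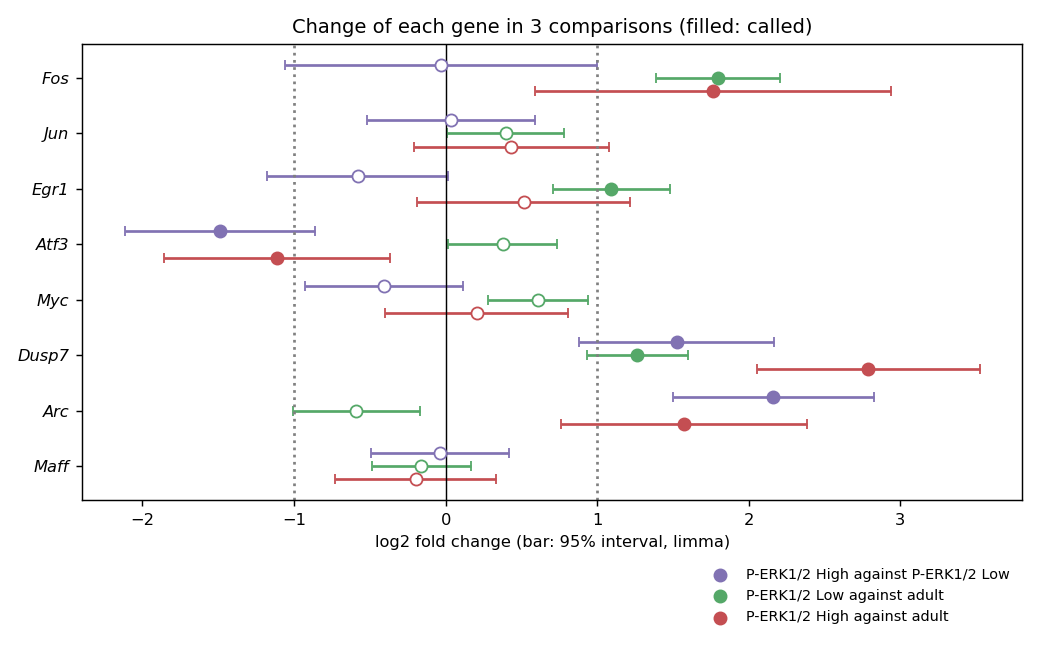
Log2 fold change of each gene (horizontal axis) with its 95% interval from limma for the 3 comparisons, filled where called and open where not, with dotted lines at the fold limit of 1. Fos, Egr1 and Dusp7 are filled for Low against adult at 1.80, 1.09 and 1.26, and Atf3 is the only gene below 0 that is called, at -1.49 and -1.11, a sign that turns on positive-control scaling.

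Directions depended on how samples were brought to a common scale. For High against Low the log2 fold change of the middle gene of all 770 was 0.26 as deposited, -0.01 with median-of-ratios scaling, -0.11 with quantile normalization, -0.76 with an equal sum, 0.53 with the housekeeping genes other than *Supt7l* and 1.86 on unscaled counts. Of the called genes, 74.6% were higher in High as deposited, 58.7% with median-of-ratios scaling and 15.9% with an equal sum. Under all 8 settings, which include subtraction of the negative controls and scaling to the positive ones, *Arc* stayed at 1.15 or higher and *Dusp7* between 0.50 and 3.51, so that neither crossed 0. *Fos* ranged from -1.06 to 1.96 and *Atf3* from -2.52 to 0.50. In bulk RNA of a sorted population, fewer cells of a kind and less RNA per cell cannot be told apart, and neither can a change of all RNA and a change of the reference genes.

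For Low against adult the corresponding median of all genes was 0.10 as deposited, -0.28 with an equal sum and -0.72 on unscaled counts, and 74.7%, 28.9% and 3.3% of called genes were higher in Low. *Fos* stayed between 0.94 and 1.84, *Dusp7* between 0.41 and 1.34 and *Egr1* between 0.24 and 1.11, so that these 3 genes kept their sign under all 8 settings. Their calls were lost on unscaled counts and on positive-control scaling, and with an equal sum those of *Dusp7* (0.88) and *Egr1* (0.71) were lost as well. That of *Egr1* was also lost with median-of-ratios scaling (0.94) and quantile normalization (0.69). *Jun*, *Atf3* and *Myc*, which were not called, did not keep their sign, and on unscaled counts they were at -0.45, -0.48 and -0.24.

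**Figure D4:**
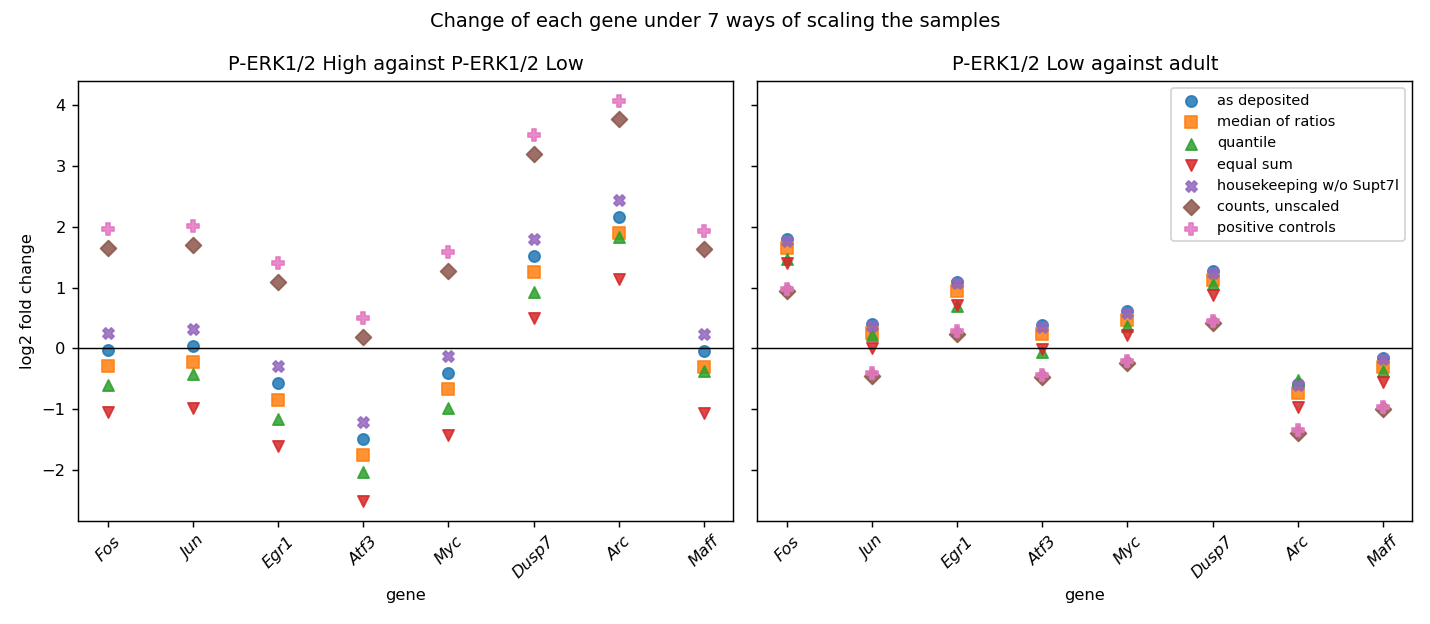
Log2 fold change (vertical axis) of each gene (horizontal axis) under 7 ways of scaling the samples, for High against Low (left) and Low against adult (right). On the left only Arc and Dusp7 lie above 0 under all of them, Atf3 lies at 0.19 on unscaled counts and 0.50 on positive-control scaling and below 0 otherwise, and on the right Fos, Egr1 and Dusp7 lie above 0 under all of them.

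The spread within groups differed by gene. In High the SD of log2 values was 1.18 for *Fos*, larger than in 99.0% of the 770 genes, and 0.22 for *Maff*, larger than in 12.9%. In Low the SD was at or below 0.22 for all 8 genes, with a median of 0.26 over the panel. Sample 7 accounted for the wide spread of *Fos*, since the SD of its normalized values in High was 836 with it and 261 without it. In that sample *Fos* and *Jun* lay within the adult range, *Egr1* and *Myc* below all adult samples, and *Dusp7* at 3.76 times the adult mean, whereas *Atf3* at 601 and *Arc* at 301 lay within the range of the other High samples. The family thus separated in sample 7, with *Fos*, *Egr1* and *Myc* at or below adult levels and *Atf3* and *Arc* at levels of the High group.

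**Figure D5:**
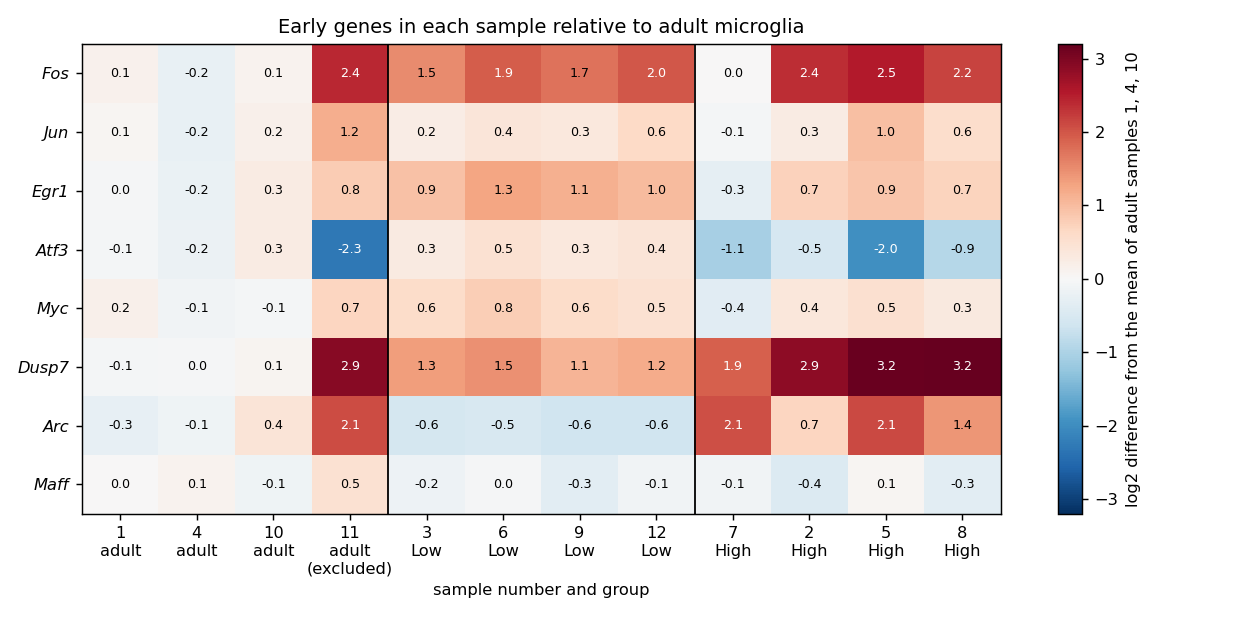
Log2 difference of each gene in each sample from the mean of adult samples 1, 4 and 10 (colour and printed value), with samples ordered by group on the horizontal axis. Sample 7 is at 0.0 for Fos, near the kept adult samples, and at 2.1 for Arc, and the excluded adult sample 11 shows 2.4 for Fos and 2.9 for Dusp7.

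Components that carry signals to these genes were examined next, as a list of 10 (*Braf*, *Map2k1*, *Map2k4*, *Map3k1*, *Mapk10*, *Mapk12*, *Mapk14*, *Creb1*, *Crebbp* and *Ep300*). Of these, 3 rose in High against Low and 0 fell by limma (0 lower at an unadjusted p under 0.05), 30% of the list beside 37.8% of all genes, and the median log2 fold change was 0.21 against 0.26 for all genes. *Ep300*, a histone acetyltransferase recruited by CREB, rose from 346 ± 4.73 to 1141 ± 150 (SD, n = 4 each; log2 fold change 1.71, limma adjusted p = 3.6e-05). *Creb1* rose from 91.3 ± 19.5 to 435 ± 331 (log2 fold change 2.01, limma adjusted p = 0.0013) and was above background in 2 of 4 Low samples. *Mapk12*, a p38 kinase, passed the limma test at 2.09, but it was above background in 0 of 4 Low samples and its High mean of 54.2 was below the Low background. Against adult, 0 of 10 were called in Low by limma, where 3 had an unadjusted p and 1 an adjusted p under 0.05, and in High against adult 4 of 10 rose, 40% beside 36.9% of all genes, including *Ep300* at 1.79 and *Creb1* at 1.79. With an equal sum *Ep300* and *Creb1* were not called, at 0.68 and 0.99 in High against Low and 0.38 and 0.38 in High against adult, *Ep300* was not called against adult with quantile normalization either (0.91), and 0 of the 10 were called higher by limma in either comparison, with 2 lower in High against Low and 6 lower in High against adult.

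Other genes induced by stimuli numbered 24 on the panel. Between High and Low, 6 rose and 4 fell, a share of 41.7% beside 37.8% for all genes. *Ets2*, an ETS factor that ERK phosphorylates, rose from 277 ± 36.1 to 2646 ± 953 (SD, n = 4 each; log2 fold change 3.18, limma adjusted p = 7.4e-06), more than any of the 8 early genes. *Ptgs2*, the inducible cyclooxygenase, rose by 2.10 and the cytokine gene *Il1a* by 2.38 on the log2 scale, with *Il1a* above background in 1 of 4 Low samples. *Tnf* fell from 1264 ± 87.0 to 443 ± 135 on the deposited scale (log2 fold change -1.57, limma adjusted p = 4.5e-04) but lay at 0.11 on unscaled counts and 0.42 on positive-control scaling. In the same way *Hmox1*, which encodes heme oxygenase, fell from 14709 ± 973 to 5593 ± 2239 (log2 fold change -1.51, limma adjusted p = 0.0023) but lay at 0.17 and 0.48. The chemokine gene *Ccl7* fell by 1.84 on the log2 scale as deposited and lay at -0.17 and 0.14, short of a call, under the same pair of scalings. With an equal sum 2 of the 24 were called higher and 10 lower, and *Il1a* at 1.36 was not called.

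For Low against adult, 6 of the 24 rose and 2 fell, 33.3% beside 10.8% of all genes. The monocyte chemokine genes *Ccl7* and *Ccl2* rose by 2.61 and 1.97 and *Tnf* by 1.27 on the log2 scale, with *Ccl7* above background in 0 of 3 adult samples and at least 3.71-fold above their background in Low. *Gadd45a*, a growth arrest gene, fell by 1.80 and *Il1a* fell by 1.17, with *Il1a* above background in 1 of 4 Low samples. The call of *Tnf* was lost with an equal sum (0.88), quantile normalization (0.85), unscaled counts (0.42) and positive-control scaling (0.45), and with an equal sum 2 of the 24 were called higher and 3 lower. On the deposited scale *Tnf* and *Ccl7* therefore rose in Low against adult, as *Fos* and *Egr1* did, and were lower in High than in Low, as *Atf3* was, a direction that turned for all of them on positive-control scaling. For High against adult, 7 of the 24 rose, led by *Ccl2* at 3.55, *Ets2* at 3.51 and *Ptgs2* at 3.13, and 2 fell, *Gadd45a* at -2.67 and *Hmox1* at -1.32, of which *Hmox1* was at -0.49 on unscaled counts and no longer called. These 9 were 37.5% of the list beside 36.9% of all genes, and the share that rose equalled the 29.2% of all genes called higher. With an equal sum 3 of the 24 were called higher and 10 lower.

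*Arc* was set beside 8 neuronal activity genes and synaptic partners (*Bdnf*, *Homer1*, *Nptx1*, *Dlg4*, *Gria1*, *Gria2*, *Grin2a* and *Grin2b*). Of these 8, 5 rose and 0 fell in High against Low by limma (2 lower at an unadjusted p under 0.05), 62.5% beside 37.8% of all genes, and the median log2 fold change was 1.17 against 0.26 for all genes. *Bdnf*, a neurotrophin gene under CREB, rose from 83.7 ± 26.4 to 604 ± 260 (SD, n = 4 each; log2 fold change 2.80, limma adjusted p = 2.8e-05), but it was above background in 2 of 4 Low and 1 of 3 adult samples. *Homer1*, a postsynaptic scaffold gene, rose by 1.28 on the log2 scale and was above background in 2 of 4 Low samples. The count depended on the scale, since with an equal sum 1 of the 8 was called higher and 2 lower, with *Homer1*, *Nptx1* and *Dlg4* at 0.26, 0.25 and 0.048, and with quantile normalization 1 higher and 1 lower, with *Homer1* at 0.93. *Gria2* passed the limma test at 1.57, but it was above background in 1 of 4 High and 0 of 4 Low samples. Against adult, 1 of 8 rose in Low, *Nptx1* at 1.20, 12.5% beside 10.8% of all genes and not called with an equal sum (0.81), and in High against adult 4 of 8 rose, 50% beside 36.9%, among them *Bdnf* at 3.13, *Nptx1* at 2.47 and *Dlg4* at 1.24, of which *Nptx1* was at 1.06 and not called and *Dlg4* turned to -0.17 with an equal sum. The sums of off-tissue genes and of other cell types given beside *Arc*, higher in High on the deposited scale, apply to this list as well, and their part was not tested.

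The genes with the most similar profiles were found by Pearson's r of log2 values over the 11 kept samples, as a description, since all values of a sample share its scale and the groups. *Dusp7* was closest to *Nlrp3*, the inflammasome sensor gene (r = 0.99), and to the histone gene *H2afx* (r = 0.99). *Atf3* was closest to the oxidative stress genes *Hmox1* (r = 0.99) and *Txnrd1* (r = 0.98). *Arc* was closest to *Kmt2c* (r = 0.99) and *Plekhm1* (r = 0.99). *Fos* was closest to the replication licensing gene *Mcm5* (r = 0.95) and the DNA methyltransferase gene *Dnmt1* (r = 0.95), *Egr1* to *Ly9* (r = 0.98) and *Dnmt1* (r = 0.96), and *Myc* to *Egr1* itself (r = 0.94) and *Sesn1* (r = 0.93). *Jun* was closest to *Mre11a* (r = 0.95) and *Mbd3* (r = 0.94). *Maff* was closest to *Aars* (r = 0.86), which is a housekeeping gene of the scale, and to *Il1r1* (r = 0.76), which was above background in 4 of 11 samples. *Fos* and *Egr1* thus had *Dnmt1* in common, and *Atf3*, *Dusp7* and *Arc* each had neighbours of their own.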

How the data were processed

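RNA of fixed, sorted microglia was counted on the nCounter, which counts color-coded probes without amplification. The values the authors deposited are a normalized signal, made in nSolver by multiplying each count by 1 factor per sample, with no background subtraction. No source used here gives the nSolver version. Dividing each column by its step gave back counts, whole within 0.1 for 99.8% of values. Control probes were kept out of the fits. All 12 columns were mapped by sample, and 0 were left over. Of the 770 gene names, 763 matched a RefSeq symbol and 7 a synonym.

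Each comparison took the 2 groups concerned and fitted log2 of the deposited value plus 1, unfiltered, with limma 3.58.1 (R 4.3.3) and Benjamini-Hochberg adjustment over all 770 genes. Fold changes are on that scale and understate those of low genes. Calls required p below 0.01 and a log2 fold change larger than 1 in size, as in the study. Whether High and Low samples came from the same animals was not stated in the labels, and p-values measure only the spread between samples. The test was tried on simulated data first. Alternatives covered a pseudocount of 0.1 or 20, a minimum mean of 50, other scalings, a plain test with unequal variances, 1 fit over all groups, other call rules, each sample left out and adult sample 11 added. The 8 genes and all lists were chosen with earlier results of these data known, and described with no test of their own. Named are the 8 genes, per list and comparison up to 3 called genes in each direction by size, the 2 most correlated genes of each, and marker genes. *Supt7l* was singled out after its values were seen. Tables were handled with pandas 2.3.3 in Python 3.11.15.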

Additional observations from a re-analysis of the deposited data

Results flagged for a closer look

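In P-ERK1/2 High sample 7, *Fos* at 394 and *Egr1* at 408 lay far below the other samples of the group, with gaps of 0.850 and 0.841 of the group's log2 range, beyond Dixon's critical value for groups of 4. These were 2 of 16 groups of 4 samples looked at, where chance gives about 1 in 20.

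Adult sample 11, which entered no comparison of the report as a main sample, was above every kept adult sample in 7 of the 8 genes, with *Fos* at 2097, *Jun* at 452, *Egr1* at 871, *Myc* at 530, *Dusp7* at 1244, *Arc* at 303 and *Maff* at 383. *Fos*, *Egr1*, *Dusp7* and *Arc* lay there within the range of P-ERK1/2 High samples 2, 5 and 8. *Atf3* at 256 was below all kept adult samples, and the housekeeping gene *Supt7l* at 583 was above their 74.9 to 106 and below the 680 to 887 of High samples. The labels of samples 7 and 11 were used as given, and whether they are right could not be checked from the files. Its positive control probes had a geometric mean of 286 counts, where the other samples had 954 to 1460, its genes summed to 1464449 counts, and its off-tissue sum was 627. The part of any of these in its values was not tested.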

How the results depend on the processing

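Single genes turned direction under several scalings, of which those to the positive controls, with negative-control background subtracted or without *Supt7l* were chosen after seeing the data. For P-ERK1/2 High (High) against P-ERK1/2 Low (Low), *Jun* turned to -0.23 with median-of-ratios scaling, -0.99 with an equal sum and -0.42 with quantile normalization. *Maff* turned to 0.093 with background subtracted, and *Fos* and *Maff* to 0.25 and 0.24 without *Supt7l*. On unscaled counts *Fos*, *Egr1*, *Atf3*, *Myc* and *Maff* turned to 1.65, 1.10, 0.19, 1.27 and 1.63, and on positive-control scaling to 1.96, 1.41, 0.50, 1.58 and 1.94. In Low against adult, *Atf3* turned to -0.011 (equal sum) and -0.067 (quantile), and *Jun*, *Atf3* and *Myc* to -0.45, -0.48 and -0.24 on unscaled counts and -0.41, -0.44 and -0.20 on positive-control scaling. In High against adult, *Jun*, *Egr1* and *Myc* turned to -0.98, -0.90 and -1.21 (equal sum) and -0.16, -0.43 and -0.60 (quantile), *Myc* to -0.19 (median of ratios), *Maff* to 0.62 (unscaled), 0.97 (positive controls) and 0.057 (without *Supt7l*), and *Atf3* to 0.061 (positive controls). The cause was not tested.

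The number of the 8 genes called in High against Low was 5 with an equal sum, 6 on unscaled counts, 7 on positive-control scaling and 1 with the plain test, and of all genes 596 and 659 on unscaled and positive-control counts and 189 with the plain test, against 3 and 291. In Low against adult it was 1 with an equal sum and 1 with positive controls (a gene lower in Low, and none of *Fos*, *Dusp7* and *Egr1*), 5 at adjusted p without the fold limit and 0 with sample 11, and of all genes 240, 228, 54, 201 and 34 on unscaled counts, positive controls, the plain test, adjusted p without the fold limit and with sample 11, against 3 and 83. In High against adult it was 2 with background subtracted, 1 with the plain test and 0 with sample 11, and of all genes 173 with the plain test and 49 with sample 11, against 4 and 284. The share of called genes that were higher was 79.2% there as deposited, 57.1% with median-of-ratios scaling, 9.95% with an equal sum, 50.5% with quantile normalization, 99.4% on unscaled counts, 99.8% on positive-control scaling and 92.9% without *Supt7l*; it was 51.5%, 91.4% and 99.8% in High against Low with quantile normalization, without *Supt7l* and unscaled, with 659 of 659 higher on positive controls, and 64.5%, 59.5% and 3.5% in Low against adult with median of ratios, quantile normalization and positive controls. With background subtracted it was 84.7%, 48.2% and 87.1% in the order High against Low, Low against adult and High against adult.

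With each sample left out in turn, 235 to 310 genes and 3 to 3 of the 8 were called in High against Low, 75 to 95 and 2 to 3 in Low against adult, and 225 to 303 and 2 to 3 in High against adult. *Fos*, *Jun* and *Maff*, whose High to Low differences are near 0, changed sign in 3 runs each, with ranges of -0.29 to 0.56, -0.14 to 0.20 and -0.13 to 0.038. No paired analysis was possible because the sample numbers all differ and no label says which High and Low samples, if any, share animals. Tests on recovered counts with edgeR and DESeq2 were planned and not run. Depth limits *Arc* most, with 11 to 17 counts in Low.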
